A study of Homo sapiens with 5 samples.

Results

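The genes described are 9 of the extrinsic, or death receptor, pathway of apoptosis: the ligand genes TNFSF10 (TRAIL) and FASLG, the receptor genes FAS, TNFRSF10A and TNFRSF10B, the adaptor gene FADD, the initiator caspase genes CASP8 and CASP10, and the inhibitor gene CFLAR. They were taken by symbol from a table of 57221 gene rows, which holds 1 row for each of them. All 9 passed the filter on low counts, as did 13075 rows in all. RNA was sequenced from NK92MI cells, a line of human natural killer (NK) cells that was given an IL2 gene and so needs no added interleukin 2. The cells were cultured for 48 h with 10 µM UNC1999 in 3 libraries, or with the solvent DMSO in 2 libraries. UNC1999 is a chemical inhibitor of EZH2 and of its relative EZH1, which place repressive methyl marks on histone H3. Both groups are 1 established line in the same medium, which contained horse serum. The labels do not say whether each library is a culture of its own, so p-values cover the spread among these libraries alone, and that spread may be technical.

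Death receptors of the TNF receptor family span the cell membrane and carry a death domain on the inner side. A ligand on a neighbouring cell gathers the receptors, the adaptor FADD binds their death domains, and FADD in turn gathers the proenzymes of CASP8 and CASP10, which then cut and activate each other. CFLAR (c-FLIP) resembles these caspases without being an active protease and limits their activation. NK cells carry TRAIL and FAS ligand as a means of killing target cells that works beside the release of granules, and they can also be targets of the same ligands through their own receptors.

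The libraries held 8442908 to 8748106 counts assigned to genes. UNC1999 replicate 2 stood apart from the other libraries of its group, with a chi-square per degree of freedom of 8.10 against replicate 1 and 9.49 against replicate 3, while replicates 1 and 3 gave 1.87 and the DMSO libraries 3.30. All 8 NK cell markers checked had at least 10 counts in every library. All 5 T cell markers had at most 2 counts in every library, and the defining B cell gene MS4A1 and the myeloid gene LYZ were at 0. The B cell factor gene PAX5 had 149 to 219 counts in UNC1999 libraries and 193 and 201 in DMSO libraries, and the myeloid receptor gene CSF1R 51 to 59 and 41 and 49. The summed level of the 4 B cell markers was 17.3 to 24.5 CPM (reads scaled to library size) in UNC1999 and 23.8 to 25.6 CPM in DMSO, and that of the 4 myeloid markers 5.99 to 7.05 and 5.46 to 5.95 CPM. Their part in the results below was not tested. EZH2, which the compound targets, was not called (log2 fold change 0.20, edgeR adjusted p = 0.178; 0.13 with the offsets described below), though it was without normalization factors (0.30, edgeR adjusted p = 0.0351). EZH1 was called lower (-0.31, edgeR adjusted p = 0.0479). That call was kept in only 4 of 17 alternatives, which are listed in the closing section. It was lost without UNC1999 replicate 1 or 3 (edgeR adjusted p = 0.0751 and 0.19) and with offsets (-0.01). DESeq2 size factors (edgeR adjusted p = 0.0794) and the DESeq2 Wald test (adjusted p = 0.128) also ended it. So did leaving out DMSO replicate 1 or 2, where the log2 fold change was -0.27 or -0.34.

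After UNC1999 the death ligand gene TNFSF10 was 2.15-fold higher and the receptor gene FAS 1.46-fold higher than with DMSO. The TRAIL receptor gene TNFRSF10B fell to 0.617 of its DMSO level, and the genes for the adaptor FADD and the initiator caspase CASP8 fell to 0.822 and 0.778 of theirs. Of the 9 genes, 2 were called higher and 3 lower at an edgeR adjusted p under 0.05, and 4 were not called. Over all tested genes 15.7% were called higher and 19.5% lower, so a count of this size on 9 genes is no result about the group. The median log2 fold change was -0.28 for the 9 genes and -0.01 for all tested genes. With the offsets described below these medians were -0.08 and -0.0036. In bulk RNA, fewer cells expressing a gene and less RNA per cell cannot be told apart.

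**Figure D1:**
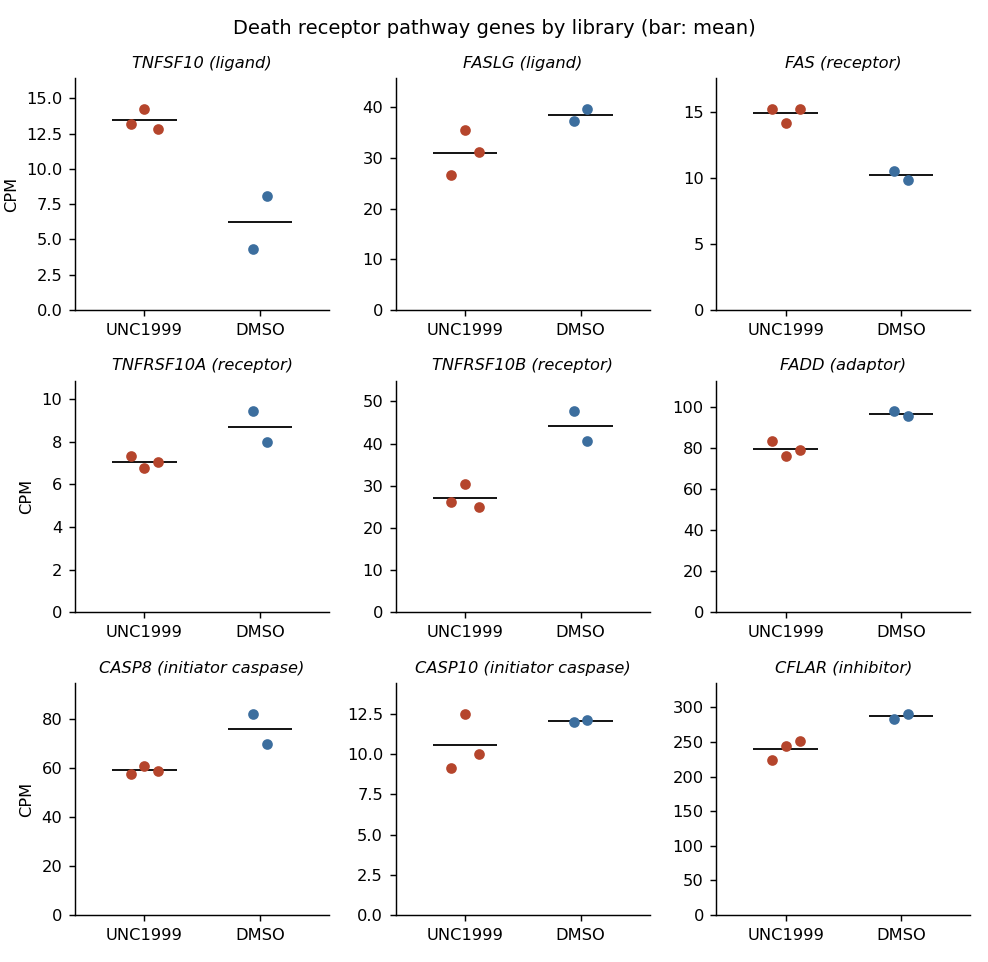
CPM of each of the 9 genes (y axis, from 0) in the 3 UNC1999 libraries (left, red) and the 2 DMSO libraries (right, blue); each point is a library and each bar a group mean. TNFSF10 and FAS have every UNC1999 library above both DMSO libraries, 6 genes have every UNC1999 library below both, and CASP10 overlaps.

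The plot of CPM by library shows the order of the libraries. With CPM scaled by TMM factors, every UNC1999 library lay above both DMSO libraries for 2 of the 9 genes and below both for 6, against 24.2% and 30.4% of all tested genes. Without the factors these counts were 2 and 5, against 4370 and 2966 of all 13075 tested genes. The scaling sets where 0 lies, since leaving the factors out moved the median log2 fold change of all genes by 0.10 and the share of calls that were higher to 62.9%, against 44.7% with them (37.1% and 55.3% lower). Fold changes also followed the GC content of genes in these data, so the fold change of each of the 9 genes is given beside the one from a fit with offsets for GC content and transcript length, and those of other genes where the offsets bear on them. In that fit 15.1% of 11017 genes were higher and 19.1% lower. Whether the trend with GC content is technical was not tested.

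TNFSF10 encodes TRAIL, which binds the receptors made from TNFRSF10A and TNFRSF10B. In GENCODE 29 (build GRCh38, where the submitters name hg19), it lies on the minus strand of chromosome 3 from 172505508 to 172523507, and positions of the other genes come from the same annotation. It had 13.2, 14.3 and 12.9 CPM in the 3 UNC1999 libraries, from 117, 131 and 113 reads, against 4.35 and 8.09 CPM in the DMSO libraries, from 35 and 68 reads. The UNC1999 libraries lay close together and well above both DMSO libraries, which differed from each other by more than the UNC1999 libraries did. The log2 fold change was 1.11 ± 0.20 (SE; 95% interval 0.71 to 1.5; edgeR adjusted p = 3.33e-05), and 2.56% of all tested genes were called higher by at least 2-fold. The size rests on the DMSO libraries. Leaving out DMSO replicate 1 gave 0.73 (edgeR adjusted p = 0.018), leaving out DMSO replicate 2 gave 1.62 (edgeR adjusted p = 6.54e-05), and the gene was called with each of the 5 libraries left out. With offsets the value was 0.89 ± 0.18 (edgeR adjusted p = 1.79e-04).

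FASLG encodes FAS ligand, the other death ligand of NK cells, from a gene on the plus strand of chromosome 1 from 172659018 to 172666874. Its level was 26.5, 35.4 and 31.1 CPM in UNC1999 libraries and 37.2 and 39.7 CPM in DMSO libraries. All 3 UNC1999 libraries were the lower ones, with UNC1999 replicate 2 nearest to DMSO. A log2 fold change of -0.31 ± 0.13 missed the threshold (edgeR adjusted p = 0.0561). It passed without UNC1999 replicate 2 (-0.41, edgeR adjusted p = 0.00382), and with offsets it was -0.03 ± 0.10 (edgeR adjusted p = 0.861).

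FAS encodes the receptor for FAS ligand. It had 15.25, 14.2 and 15.25 CPM in UNC1999 libraries, against 10.6 and 9.87 CPM in DMSO libraries. The gap between the groups was far wider than the spread within either. The log2 fold change was 0.54 ± 0.16 (SE; 95% interval 0.22 to 0.87; edgeR adjusted p = 0.0069), and leaving out DMSO replicate 2 ended the call (0.49, edgeR adjusted p = 0.0882). With offsets it fell short of the threshold (0.28 ± 0.15, edgeR adjusted p = 0.147). FAS lies on the plus strand of chromosome 10 from 88990582 to 89015785. Its start overlaps the end of the range annotated for ACTA2, an actin gene on the minus strand from 88935074 to 88991339. ACTA2 had 19, 14 and 14 reads in UNC1999 libraries and 5 and 7 in DMSO libraries. The sources used here do not give the strand setting of the counting, so reads in the overlap cannot be assigned with certainty. The ACTA2 log2 fold change of 1.25 (edgeR adjusted p = 0.0308) lost its call without UNC1999 replicate 1 or with either DMSO library left out (edgeR adjusted p = 0.0967, 0.243 and 0.109). With offsets it was 1.58 (edgeR adjusted p = 0.00555).

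TNFRSF10B encodes the TRAIL receptor DR5 and lies on the minus strand of chromosome 8 from 23020133 to 23069179. It had 26.1, 30.4 and 25.03 CPM in UNC1999 libraries and 47.7 and 40.55 CPM in DMSO libraries. Every UNC1999 library was well below both DMSO libraries. Its log2 fold change was -0.70 ± 0.13 (SE; 95% interval -0.95 to -0.44; edgeR adjusted p = 4.49e-05), lay between -0.81 and -0.58 with each library left out, and was called each time. With offsets it was -0.37 ± 0.10 (edgeR adjusted p = 0.00408).

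TNFRSF10A, which encodes the TRAIL receptor DR4 and lies on the same strand from 23190452 to 23225126, had 7.34, 6.76 and 7.05 CPM in UNC1999 libraries and 9.44 and 7.97 CPM in DMSO libraries, from 62 to 76 reads each. The groups did not overlap but lay close together at this depth. Its log2 fold change of -0.30 ± 0.19 did not pass (edgeR adjusted p = 0.212; 95% interval -0.68 to 0.08), and the sign turned with offsets (0.07, edgeR adjusted p = 0.8).

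The adaptor gene FADD, on the plus strand of chromosome 11 from 70203163 to 70207390, had 83.1, 76.2 and 79.0 CPM in UNC1999 libraries and 97.8 and 95.5 CPM in DMSO libraries. Both groups were tight and separate, with a small gap. FADD was called at -0.28 ± 0.11 on the log2 scale (SE; edgeR adjusted p = 0.0399), and with offsets -0.24 ± 0.08 (edgeR adjusted p = 0.0145). Its call was near the threshold. Leaving out UNC1999 replicate 1 or 3 ended it (edgeR adjusted p = 0.0786 and 0.112), as did leaving out DMSO replicate 1 or 2 (edgeR adjusted p = 0.227 and 0.15) and fitting without normalization factors (-0.18, edgeR adjusted p = 0.217).

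CASP8, the main initiator caspase of this pathway, had 57.7, 60.8 and 58.7 CPM in UNC1999 libraries and 82.3 and 69.7 CPM in DMSO libraries. The UNC1999 libraries lay within a narrow range below both DMSO libraries. The log2 fold change was -0.36 ± 0.11 (SE; 95% interval -0.59 to -0.13; edgeR adjusted p = 0.0112), and with offsets -0.41 ± 0.09 (edgeR adjusted p = 2.93e-04). Without DMSO replicate 1, the higher of the DMSO libraries, it was -0.24 and not called (edgeR adjusted p = 0.292), and the call was also lost without UNC1999 replicate 1 (edgeR adjusted p = 0.0551).

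CASP10, the related initiator caspase, had 9.15, 12.5 and 10.0 CPM in UNC1999 libraries and 12.04 and 12.1 CPM in DMSO libraries. UNC1999 replicate 2 lay above both DMSO libraries and the other UNC1999 libraries below them. With a log2 fold change of -0.19 ± 0.17 it did not pass (edgeR adjusted p = 0.401; 95% interval -0.53 to 0.15), and with offsets it was -0.08 ± 0.15.

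CFLAR had the most reads of the 9, with 224.6, 243.6 and 251.8 CPM in UNC1999 libraries and 283.2 and 291.1 CPM in DMSO libraries. All 3 UNC1999 libraries were lower than both DMSO libraries. Its log2 fold change of -0.26 ± 0.11 missed the threshold (edgeR adjusted p = 0.0557) and passed without UNC1999 replicate 2 (-0.26, edgeR adjusted p = 0.00563). With offsets it was -0.51 ± 0.07 (edgeR adjusted p = 4.71e-07). That size depends on the length: the longest annotated CFLAR transcript has 14672 bases, against 5928 bases or fewer for the other 8 genes, and with offsets for GC content alone, added after the data were seen, the value was -0.24 (edgeR adjusted p = 0.0118).

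**Figure D2:**
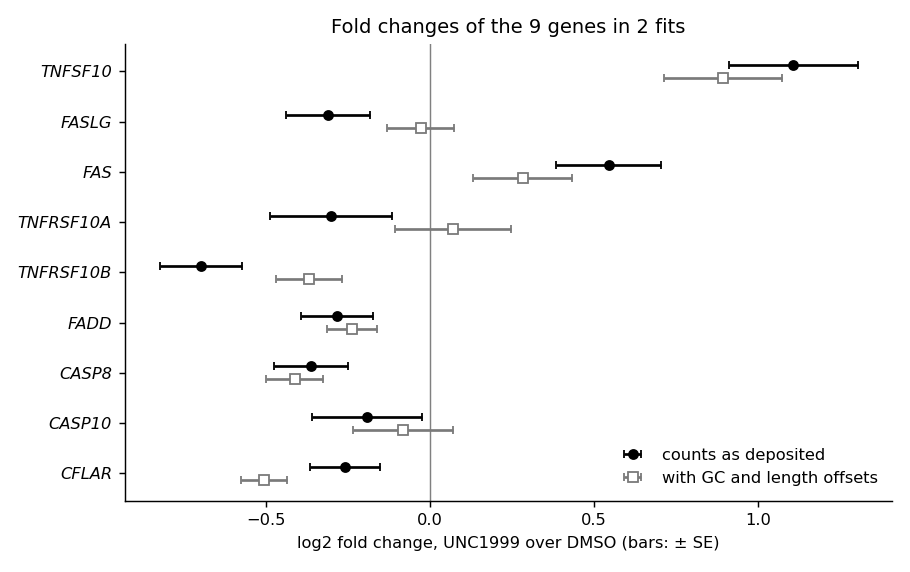
Log2 fold change of UNC1999 over DMSO (x axis) for the 9 genes (y axis), with bars of 1 SE either way. Filled circles, labelled as counts as deposited, come from the fit with TMM factors and no offsets. Open squares come from the fit with GC and length offsets. TNFSF10 is at 0.89 or above in both fits. With offsets FAS stands at 0.28 in place of 0.54, TNFRSF10B at -0.37 in place of -0.70, and CFLAR at -0.51 in place of -0.26.

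The plot of fold changes in the 2 fits shows which genes move with the correction. Relative to all genes, the trend of UNC1999 minus DMSO at each gene's own GC content and transcript length was 0.21 for TNFSF10, 0.26 for FAS and 0.25 for CFLAR on the log2 scale. For TNFRSF10A it was -0.37, for TNFRSF10B -0.33 and for FASLG -0.29. It was -0.05 for FADD, 0.05 for CASP8 and -0.11 for CASP10. With offsets 1 of the 9 genes was called higher, TNFSF10, and 4 were called lower: TNFRSF10B, FADD, CASP8 and CFLAR.

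CFLAR, CASP10 and CASP8 are neighbours on chromosome 2, all on the plus strand (GENCODE 29, GRCh38). CFLAR lies from 201116104 to 201176687, CASP10 from 201182881 to 201229406 and CASP8 from 201233443 to 201287711. CFLAR-AS1 is antisense to CFLAR, from 201140278 to 201157823. It had 218, 188 and 189 reads in UNC1999 libraries and 189 and 210 in DMSO libraries (log2 fold change -0.13, edgeR adjusted p = 0.498; -0.07 with offsets). IMPDH1P10, a processed pseudogene on the minus strand within the same range, had 212, 158 and 204 reads in UNC1999 libraries and 231 and 220 in DMSO libraries (-0.35, edgeR adjusted p = 0.0457). This call was near the threshold and was lost in 11 of 17 alternatives, among them DESeq2 size factors (edgeR adjusted p = 0.0604) and the offsets (-0.24, edgeR adjusted p = 0.112). It was also lost with UNC1999 replicate 2 left out (-0.21, edgeR adjusted p = 0.156) or either DMSO library (edgeR adjusted p = 0.284 and 0.0934). Both could hold reads of CFLAR, since the strand setting is not known. ALS2CR12, downstream of CASP8, had 4 reads or fewer in every library. RHOBTB2, on the plus strand of chromosome 8 from 22987417 to 23020199, overlaps the range of TNFRSF10B from 23020133. Reads in that overlap cannot be assigned with certainty either. RHOBTB2 was not called (-0.21, edgeR adjusted p = 0.16), but was with offsets (-0.30, edgeR adjusted p = 0.00547).

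Levels can be compared between genes only per length. Per kilobase of merged annotated exons, FADD was the highest of the 9, with 43.1 ± 1.89 CPM per kilobase in UNC1999 and 52.5 ± 0.906 in DMSO (SD, n = 3 and n = 2). FASLG followed with 16.4 ± 2.35 and 20.4 ± 0.923, then CFLAR with 10.7 ± 0.619 and 12.7 ± 0.247, CASP8 with 8.16 ± 0.22 and 10.5 ± 1.23, and TNFRSF10B with 5.27 ± 0.553 and 8.55 ± 0.978 (same units and groups). The libraries of neighbouring genes in this upper part of the order did not overlap within a group.

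The order of the low genes differed between the groups. TNFSF10 had 3.87 ± 0.213 CPM per kilobase of exon in UNC1999 and 1.79 ± 0.762 in DMSO, FAS 3.50 ± 0.146 and 2.40 ± 0.114, TNFRSF10A 2.39 ± 0.0986 and 2.95 ± 0.352, and CASP10 1.39 ± 0.232 and 1.59 ± 0.00788. In UNC1999 libraries TNFSF10 thus stood above FAS, TNFRSF10A and CASP10. In DMSO libraries TNFRSF10A stood above FAS, while TNFSF10 overlapped with both FAS and CASP10.

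The length used matters most for CFLAR, whose merged exons span 22529 bases but whose longest coding sequence has 1440 bases. Per kilobase of coding sequence CFLAR was the highest of the 9, with 166.7 ± 9.69 in UNC1999 and 199.4 ± 3.86 CPM per kilobase in DMSO, above FADD with 127.3 ± 5.58 and 154.9 ± 2.67. On that scale FASLG (36.8 and 45.6) and CASP8 (36.6 and 47.1) overlapped in both groups. Whether the inhibitor gene or the adaptor gene was the higher one therefore depends on the length, and the isoforms present were not analysed here.

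**Figure D3:**
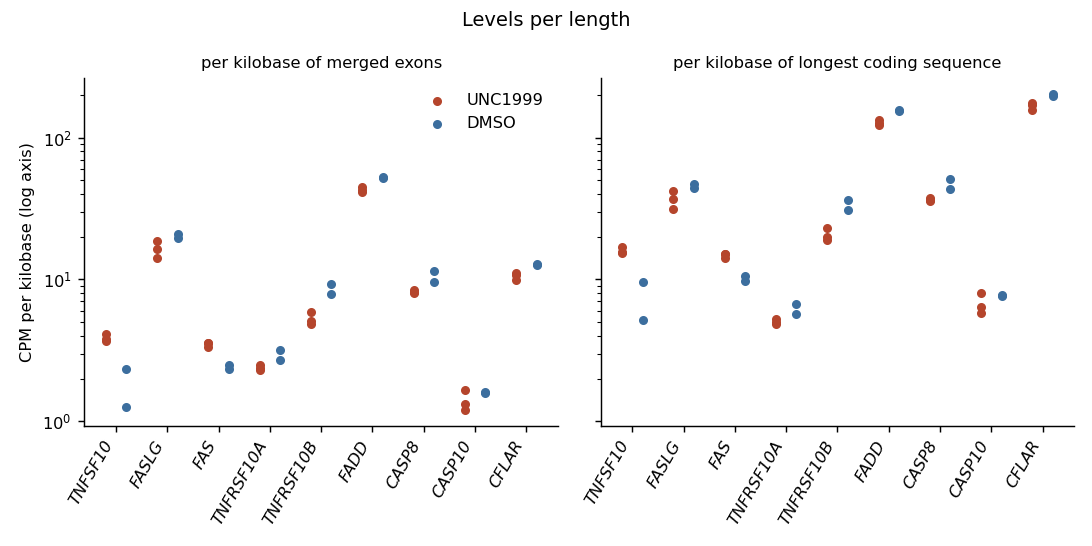
CPM per kilobase (y axis, log scale) of the 9 genes (x axis) in each UNC1999 library (left points, red) and DMSO library (right points, blue), per kilobase of merged exons (left panel) or of the longest coding sequence (right panel). FADD is highest in the left panel and CFLAR in the right one; TNFRSF10A and CASP10 are among the lowest in both.

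The plot of levels per length covers all 5 libraries. Ratios within a library need no scaling between libraries, and 5 were computed. TNFSF10 had 0.395, 0.384 and 0.401 reads per read of its receptor genes TNFRSF10A and TNFRSF10B together in UNC1999 libraries, against 0.0761 and 0.167 in DMSO libraries. The UNC1999 libraries lay close together and the DMSO libraries far below them. The log2 ratio was higher by 1.80 in UNC1999, by 1.24 without DMSO replicate 1 and by 2.37 without DMSO replicate 2. FASLG had 1.74, 2.50 and 2.04 reads per FAS read in UNC1999 libraries and 3.53 and 4.02 in DMSO libraries, a log2 difference of -0.86. For both ratios the groups did not overlap, and the exact two-sided permutation p was 0.1, the smallest that 5 libraries allow, or 0.25 after adjustment over the 5 ratios. With offsets the log2 differences were 1.25 and -0.32.

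The ratios downstream of the receptors overlapped between the groups. CFLAR had 3.89, 4.005 and 4.29 reads per CASP8 read in UNC1999 libraries and 3.44 and 4.18 in DMSO libraries. CASP10 had 0.159, 0.206 and 0.170 and, in DMSO libraries, 0.146 and 0.174 reads per CASP8 read. FADD had 1.44, 1.25 and 1.34 reads per CASP8 read in UNC1999 libraries and 1.19 and 1.37 in DMSO libraries. The log2 differences were 0.10, 0.15 and 0.07 (exact permutation p = 0.5 for each, also after adjustment over the 5 ratios), and those of CFLAR and FADD were -0.04 and -0.03 without DMSO replicate 1. With offsets the 3 differences were -0.10, 0.31 and 0.17, so that of CFLAR turned its sign.

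**Figure D4:**
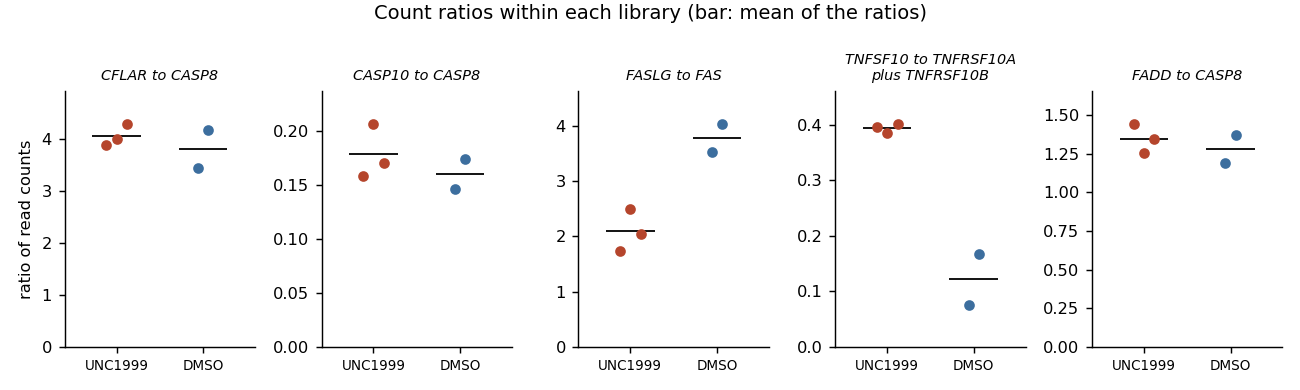
Ratios of read counts within each library (y axis, from 0) for 5 pairs, in UNC1999 libraries (left, red) and DMSO libraries (right, blue); each bar is the mean of a group. FASLG to FAS is lower in every UNC1999 library and TNFSF10 to its receptors higher, while the 3 ratios to CASP8 overlap.

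The plot of ratios shows the ligand and receptor pairs separating the groups. Upstream sequences are printed for TNFSF10, the gene with the largest fold change of the 9, and for FADD and CASP8, which were called lower, to show how their starts differ. RefSeq promoter entries (build GRCh38.p14) were used for 6 of the 9 genes, TNFSF10, FASLG, FAS, FADD, CASP8 and CFLAR. The windows of TNFRSF10B, which was also called lower, TNFRSF10A and CASP10 are not reported here. Where a gene has several RefSeq entries, the start farthest upstream among them was taken. The window searched is the 250 bases before that start, and the part of it before the GENCODE 29 gene start is printed, 5′ to 3′ on the strand of the gene. Capitals mark matches, on either strand, to an interferon response core (GAAA, any 2 bases, GAAA), the STAT site TTCNNNGAA and the GC box GGGCGG, none of which overlap each other here.
TNFSF10, chr3:172523508-172523680, minus strand: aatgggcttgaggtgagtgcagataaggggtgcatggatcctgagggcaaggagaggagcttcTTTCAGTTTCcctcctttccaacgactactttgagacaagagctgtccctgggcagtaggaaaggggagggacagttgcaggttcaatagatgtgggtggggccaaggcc
FADD, chr11:70203046-70203162, plus strand: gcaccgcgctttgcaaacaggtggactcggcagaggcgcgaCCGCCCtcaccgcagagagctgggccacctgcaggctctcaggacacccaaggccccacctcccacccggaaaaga
CASP8, chr2:201233213-201233442, plus strand: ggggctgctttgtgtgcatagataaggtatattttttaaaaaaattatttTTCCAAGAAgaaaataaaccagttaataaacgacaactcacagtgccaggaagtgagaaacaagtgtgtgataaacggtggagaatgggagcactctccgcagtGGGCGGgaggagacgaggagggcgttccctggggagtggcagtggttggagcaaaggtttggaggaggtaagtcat

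The whole TNFSF10 window held 2 CpG dinucleotides and 1 match to the interferon response core, which lies in the printed part, and no match to the other motifs. The FADD window held 32 CpG dinucleotides and 2 GC boxes, of which the first is printed. In CASP8 there were 6 CpG dinucleotides, 1 GC box and 1 STAT site match. The FAS window, not printed because nearly all of it lies after the GENCODE start, held 14 CpG dinucleotides and 1 GC box. FASLG, which was not called, also held 2 CpG dinucleotides and 1 interferon response core match, with 1 GC box. The window of CFLAR, likewise not called, held 17 CpG dinucleotides and 1 GC box. All of that window, from 201118466 to 201118715, lies after the GENCODE start of CFLAR at 201116104. It is thus not the sequence upstream of the annotated gene. Over 35116 promoters of the same length, 3.02% held the interferon response core, 6.57% the STAT site and 42.6% the GC box, and the median number of CpG dinucleotides was 11. A match describes the letters of a window only, and TNFSF10 and FAS, both called higher, shared none of the 3 motifs.

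By the distance between centred log2 CPM over the 5 libraries, the genes with the pattern most like TNFSF10 among 13075 were NSUN7 (distance 0.118), KANSL1L (0.153) and NT5M (0.216). All 3 had DMSO replicate 2 above DMSO replicate 1 and every UNC1999 library above both, as TNFSF10 had. KANSL1L had 7.91, 8.83 and 7.62 CPM in UNC1999 libraries and 2.61 and 5.47 CPM in DMSO libraries. NSUN7 and NT5M had 25 reads or fewer in every library, and NSUN7 was not called (1.36, edgeR adjusted p = 0.0531). It was called in 6 of 14 alternatives, among them the offsets (1.44, edgeR adjusted p = 0.0368). KANSL1L (log2 fold change 0.997, edgeR adjusted p = 9.42e-04) was at 0.57 and not called when DMSO replicate 1 was left out (edgeR adjusted p = 0.127), and at 1.63 when DMSO replicate 2 was. With offsets it was 0.66 (edgeR adjusted p = 0.022). NT5M (1.01, edgeR adjusted p = 0.0338) was at 0.52 and not called when DMSO replicate 1 was left out (edgeR adjusted p = 0.451), at 1.77 when DMSO replicate 2 was, and lost its call without UNC1999 replicate 2 as well (edgeR adjusted p = 0.0534). The NT5M call was also lost with offsets (0.87, edgeR adjusted p = 0.0729).

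The genes most like TNFRSF10B were UBE2Q1-AS1 (0.0401), DCAF12 (0.0464) and GINS4 (0.048). They had log2 fold changes of -0.72, -0.69 and -0.70, all called (edgeR adjusted p = 2.5e-05, 8.54e-06 and 8.47e-06). With offsets these were -0.41, -0.41 and -0.39, all still called. Each had its highest level in DMSO replicate 1 and its highest UNC1999 level in replicate 2, as TNFRSF10B had. Genes chosen by this distance are bound to resemble the gene they match. Their likeness to TNFRSF10B and to TNFSF10 is therefore no separate result.

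Beyond the 9 genes, 57 further genes of the pathway were listed by role, and 42 of them passed the filter. Of these, 8 were called higher, 10 lower and 24 not called, where 15.7% and 19.5% of all tested genes were higher and lower. These counts are near that background. The median log2 fold change was -0.0018 for the 42, against -0.01 for all tested genes. With offsets 6 were higher and 10 lower of 41 tested. With either DMSO library left out, fewer list genes were called higher and fewer lower, and the same held over all tested genes.

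**Figure D5:**
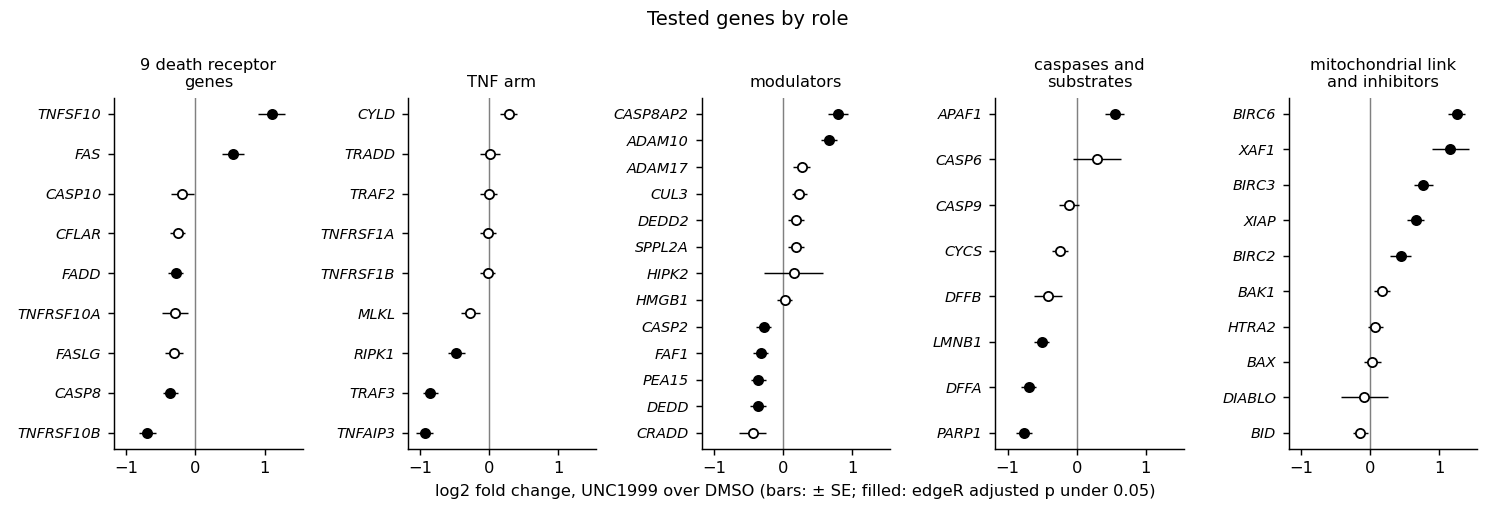
Log2 fold change of UNC1999 over DMSO (x axis, bars of 1 SE either way) of the 9 genes and the tested list genes, all but 2 (y axis), in 5 panels by role; filled points were called at an edgeR adjusted p under 0.05 and open points were not. The panel on the right, of the mitochondrial link and the inhibitors of apoptosis, has 5 filled points above 0 and none below. The 5 include XAF1, an antagonist of XIAP. The TNF panel has 3 filled points below 0 and none above.

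None of the 6 genes listed as further receptors and decoys passed the filter. The decoy receptor gene TNFRSF10C, whose product binds TRAIL without a death domain, had 1 read in each UNC1999 library and 2 and 3 reads in DMSO libraries. TNFRSF10D, TNFRSF11B and TNFRSF6B, also decoys, and TNFRSF21 and EDA2R had 0 reads in all 5 libraries. With 0 reads a level of up to 0.327 to 0.372 CPM, or 3 counts in a library, remains possible by counting error alone. TNFRSF10A to TNFRSF10D are related in sequence, so reads shared between them may be split or lost.

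The plot of genes by role shows the 9 genes in its left panel and the TNF branch next to them. Of its 9 tested genes 3 were lower and 0 higher in edgeR, as in DESeq2 and limma-voom, against 19.5% lower and 15.7% higher over all tested genes. With offsets 2 were lower and 0 higher. At an unadjusted p under 0.05 without them, 4 were lower and 1 higher, against 3114 and 2650 of all 13075 tested genes. TRAF3, a restraint on the alternative NF-kappaB pathway, had 103.8, 104.9 and 102.9 CPM in UNC1999 libraries and 195.9 and 178.6 CPM in DMSO libraries (log2 fold change -0.85 ± 0.11 SE, edgeR adjusted p = 1.72e-07; -0.80 with offsets). TNFAIP3, which encodes the NF-kappaB inhibitor A20, had 33.4, 31.1 and 38.9 CPM in UNC1999 libraries and 70.7 and 61.1 CPM in DMSO libraries (-0.93 ± 0.12, edgeR adjusted p = 2.78e-07; -0.63 with offsets). In all 3 UNC1999 libraries both genes lay far below both DMSO libraries. RIPK1, a kinase shared by death and survival signals and named after its values were seen, was also lower (-0.47, edgeR adjusted p = 0.0016). It was not called when DMSO replicate 2 was left out (-0.42, edgeR adjusted p = 0.0542), nor with offsets (-0.15, edgeR adjusted p = 0.224). TNF, LTA and LTB had 0 reads in every library, but TUBB and DDX39B, genes of general use in the same part of chromosome 6, also had 0, so these zeros give no level. DAXX, of the modulators below and of the same region, had 2 to 12 reads.

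Of 13 tested modulators, 2 were higher, 4 lower and 7 not called, against 15.7% higher and 19.5% lower over all tested genes. With offsets 1 was higher and 5 lower. CASP8AP2 (FLASH), a protein that binds CASP8 and also acts in histone mRNA processing, had 36.7, 29.5 and 36.8 CPM in UNC1999 libraries and 17.1 and 22.2 CPM in DMSO libraries (0.80 ± 0.14, edgeR adjusted p = 3.42e-05; 0.33 with offsets, still called). ADAM10, a membrane protease that can release FAS ligand, was higher (0.66, edgeR adjusted p = 2.47e-05) and not called with offsets (0.10, edgeR adjusted p = 0.396). PEA15, which like FADD carries a death effector domain, was lower (-0.36, edgeR adjusted p = 0.00935). With either DMSO library left out PEA15 was not called (edgeR adjusted p = 0.107 and 0.0693), nor was it with offsets (-0.01). The other lower modulators, named after their values were seen, were DEDD (-0.37), FAF1 (-0.32) and CASP2 (-0.28). With DMSO replicate 1 left out none of these 3 was called (edgeR adjusted p = 0.171, 0.0823 and 0.411), and DEDD was not called with offsets (-0.01).

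The list of caspases and their substrates had 10 tested genes, among them genes of other roles such as APAF1 and DFFB. Of the 10, 1 was higher, 3 lower and 6 not called, against the same 15.7% and 19.5%. With offsets 0 were higher and 3 lower. PARP1, a DNA damage sensor cut by caspases during apoptosis, had 353.7, 417.6 and 327.0 CPM in UNC1999 libraries and 670.6 and 569.9 CPM in DMSO libraries (-0.76 ± 0.11, edgeR adjusted p = 2.55e-06; -0.42 with offsets). DFFA, which holds the DNA-cutting nuclease DFFB in check, had 178.9, 187.1 and 156.2 CPM and, in DMSO libraries, 293.4 and 270.9 CPM (-0.70 ± 0.11, edgeR adjusted p = 5.8e-06; -0.48 with offsets). APAF1, the scaffold of the apoptosome, was higher (0.55, edgeR adjusted p = 0.0019; 0.27 and not called with offsets, edgeR adjusted p = 0.0801). LMNB1, a nuclear lamina gene named after its values were seen, was the third lower one (-0.51, edgeR adjusted p = 3.48e-04; -0.17 and not called with offsets, edgeR adjusted p = 0.0702).

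Of the 10 genes for the mitochondrial link and the inhibitors of apoptosis, 5 were higher and 0 lower in edgeR, against 15.7% and 19.5% of all tested genes; no test of the list was made. At an unadjusted p under 0.05 these counts were 5 and 0, against 2650 and 3114 of all 13075 tested genes. In DESeq2 they were 4 and 0 (1695 and 1933 over all genes), and in limma-voom 5 and 0 (1979 and 2535). BIRC6, a very large inhibitor of apoptosis, had 116.2, 95.3 and 113.6 CPM in UNC1999 libraries and 48.3 and 42.8 CPM in DMSO libraries (1.25 ± 0.12, edgeR adjusted p = 2.04e-09; 0.90 with offsets). BIRC3 (cIAP2), a ubiquitin ligase that acts on RIPK1, had 68.6, 60.9 and 76.3 CPM and, in DMSO libraries, 32.9 and 47.7 CPM (0.77 ± 0.13, edgeR adjusted p = 2.77e-05; 0.37 with offsets). XIAP (0.65), which blocks caspases, and BIRC2 (0.44, cIAP1) were also higher. These 2, named after their values were seen, lost their calls with offsets (0.17 and 0.10, edgeR adjusted p = 0.195 and 0.611), and the BIRC2 call was lost when either DMSO library was left out (edgeR adjusted p = 0.0552 and 0.23). XAF1, an antagonist of XIAP and named for the same reason, had 6.32, 4.80 and 7.62 CPM in UNC1999 libraries and 1.86 and 3.69 CPM in DMSO libraries. Its log2 fold change was 1.16 (edgeR adjusted p = 9.39e-04; 1.12 with offsets), with 0.75 and no call when DMSO replicate 1 was left out (edgeR adjusted p = 0.0887), and 1.73 when DMSO replicate 2 was. With offsets 5 of 9 tested genes of this list were higher, against 15.1% of all genes in that fit. They were BIRC6, BIRC3 and XAF1, with BAK1 (0.20) and BID (0.23) in place of XIAP and BIRC2. With offsets for GC content alone, neither BAK1 nor BID was called (edgeR adjusted p = 0.0818 and 0.127). BID, which links CASP8 to mitochondria, had -0.15 without offsets, so its sign turned. The median log2 fold change of the list was 0.30, or 0.20 with offsets.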

How the data were processed

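RNA was isolated with Trizol and made into libraries with an NEB Next Ultra RNA kit, per the labels' protocols. The authors deposited raw read counts per gene symbol in 1 table. Named in the submitters' processing notes, without roles, are edgeR 3.34.0, HTSeq 0.13.5, STAR 2.7.9, fastp and hg19. The sources used here give neither the annotation, the strand setting nor the handling of reads that map to several places. Columns were matched to samples by name.

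Rows kept by filterByExpr were tested with edgeR 4.0.16 (R 4.3.3; TMM, quasi-likelihood F-test, UNC1999 against DMSO, Benjamini-Hochberg over 13075 rows, threshold 0.05). CPM are scaled by TMM factors; a prior count of 2 was added for log2 CPM. GC content and longest transcript length came from GENCODE 29 (GRCh38, not the authors' hg19) for 84.3% of tested rows. Offsets came from splines in GC content (6 degrees of freedom) and length (4), fitted to how each library departed from the average library. The steps were tested on simulated counts. Ratios between genes were tested by exact permutation over 10 arrangements of the libraries. Alternatives used DESeq2 1.42.0 and limma 3.58.1, and are listed in the closing section.

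The 9 genes, the pathway lists and the alternatives were chosen with earlier results of these data known. From each list the text names the called gene with the smallest p in each direction and the called gene with the next smallest p, or the most abundant gene where none was called. Further list genes, with TUBB and DDX39B, were named after their values were seen, some of them because they were not called. EZH2 and EZH1, overlapping or neighbouring genes, and the 3 tested genes nearest in pattern to the member with the smallest p in each direction were also named by rule. A few withheld genes count in the totals but are not reported here.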

Additional observations from a re-analysis of the deposited data

How the results depend on the processing

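Alternatives were DESeq2 size factors, no normalization factors, no filter, a stricter filter, the DESeq2 Wald test, limma-voom, robust dispersion, a replicate block, GC and length offsets, both together, annotated genes only, a threshold of 0.01, a pseudocount for the ratios, each library left out in turn and, added after the data were seen, GC offsets without length. TNFSF10 was called higher in every one of these fits, and CASP10 and TNFRSF10A in none. With a DMSO library left out, the lone remaining one is assumed to vary like the UNC1999 libraries. Replicate numbers are shared by the groups, but nothing says that they pair the libraries (correlation of deviations 0.0658 for number 1 and 0.0381 for number 2). With the replicate block 1886 genes were higher and 2136 lower, and FADD was -0.28 and not called (edgeR adjusted p = 0.0958). With the block and the offsets these counts were 1038 and 1477, with 1 member and 1 list gene higher; FAS was 0.24, TNFRSF10B -0.33 and FADD -0.21, none called, and CFLAR -0.55, called. With the offsets alone, or with GC offsets without length, 1 member was higher, FAS was 0.28 or 0.19 and not called, and CFLAR -0.51 or -0.24 and called. The TNFRSF10A sign turned in these 3 fits (0.0499 with the block and offsets, 0.0696 with offsets, 0.0086 with GC alone), and so did that of EZH1 in the first and last (0.0291 and 0.0011). For BID, -0.15 with TMM factors and no offsets, all 3 turned it (0.16 with the block and offsets and with GC alone, 0.23 with offsets). The offsets also gave log2 ratio differences of -0.10 for CFLAR to CASP8, which turned its sign, -0.32 for FASLG to FAS and 1.25 for TNFSF10 to its receptors. Without factors 1 member and 6 list genes were lower, and FADD (-0.18) and CASP8 (-0.26) were not called. On annotated genes only, where fewer genes are adjusted over, 5 members were lower, FASLG (-0.32) and CFLAR (-0.26) among them. At a threshold of 0.01 it was 1. FADD was also not called with DESeq2 size factors or in the DESeq2 Wald test (-0.26 in both), without a filter (-0.28) or with the stricter filter (-0.24). The cause of these changes was not tested.

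With each library left out in turn, 1 to 2 members were called higher and 1 to 5 lower, 6 to 14 list genes lower, and 1158 to 2862 of all genes higher and 1367 to 3030 lower. The lowest counts over all genes came without DMSO replicate 1 and the highest without UNC1999 replicate 2. The log2 fold change ran from -0.41 to -0.20 for FASLG, 0.49 to 0.59 for FAS, -0.31 to -0.24 for FADD, -0.48 to -0.24 for CASP8 and -0.29 to -0.21 for CFLAR. The log2 ratio difference ran from -0.0416 to 0.24 for CFLAR to CASP8, -0.0282 to 0.18 for FADD to CASP8 and 1.24 to 2.37 for TNFSF10 to its receptors. Over 32 other named genes, 438 of 536 refits kept direction and call, 82 lost the call, 11 gained one and 5 turned sign. Precision was lowest for the genes with few reads: TNFSF10, FAS, TNFRSF10A and CASP10 had 35 to 135 reads per library, with standard errors of 0.16 to 0.20 on the log2 scale.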

Other observations

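DMSO replicate 2 lay above DMSO replicate 1 for TNFSF10 (8.09 and 4.35 CPM), XAF1 (3.69 and 1.86 CPM) and BIRC3 (47.7 and 32.9 CPM), all 3 of which were higher in UNC1999. These 3 were chosen after their values were seen, and with 2 DMSO libraries no further check of the difference between them was made.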
